A study of Homo sapiens with 16 samples.

Results

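The genes described here are 8 genes of cholesterol synthesis and of its control by sterol regulatory element-binding proteins (SREBPs), out of 10823 genes with a transcript in the deposited tables. They are MBTPS1, INSIG1, HMGCS1, FDPS, FDFT1, SQLE, LSS and DHCR7, taken by gene symbol after transcript identifiers were matched to the annotation, and all 8 were listed in both tables. The set was put together around MBTPS1, which had been selected on its RPF and RNA values in these libraries (more ribosome footprints in MDA-LM2 than in parental cells at a like RNA level), so the MDA-LM2 values of these 8 genes are given as a description without a test. Ribosome profiling sequences the mRNA fragments that ribosomes shield from nuclease (ribosome-protected footprints, RPFs), and RNA-seq gives mRNA abundance. Translation efficiency (TE) is the RPF value divided by the RNA value of a gene.

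The 4 lines were all human triple receptor negative MDA-MB-231 breast cancer cells, grown in DMEM with high glucose and fetal bovine serum. MDA-Par was the poorly metastatic parental line. MDA-LM2 was its highly metastatic derivative, obtained by selection in mice for growth in the lung. MDA-sgCTRL and MDA-sgHNRNPC cells carried CRISPR interference with a control guide or a guide against HNRNPC, a nuclear RNA-binding protein with a preference for stretches of uridine. In a bulk lysate, fewer cells that express a gene and less of its RNA per cell cannot be told apart. Each line had 2 replicates of each kind of library, 16 libraries in 8 groups. The study describes its sequencing as done in biological duplicates, and the labels give replicate numbers only. The p-values measure only the spread between these samples. The listed genes matched the label of the cells: VIM, CD44 and CAV1, which mark mesenchymal-like breast cancer cells, were above at least 86.8% of genes per length of transcript in every line, ESR1, PGR and CDH1 were not listed, and GATA3 was higher than in at most 0.183% of genes where it was listed.

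Cholesterol is built from acetyl-CoA by a chain of enzymes, and most of their genes are switched on by SREBPs, transcription factors made as precursors in the membrane of the endoplasmic reticulum. When sterols are low, the escort protein SCAP carries the precursor to the Golgi, where the site 1 protease (gene MBTPS1) and then the site 2 protease (MBTPS2) cut it and free the active part. When sterols are high, INSIG1 or INSIG2 holds SCAP and the precursor back, and INSIG1 is itself an SREBP target. HMGCS1 makes HMG-CoA, FDPS makes farnesyl diphosphate, FDFT1 joins farnesyl diphosphate into squalene, SQLE oxidises squalene, LSS closes the rings to lanosterol, and DHCR7 carries out one of the last steps.

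SREBPs bind promoters next to the general factors NF-Y and Sp1, so the stretches before the start of 3 of the genes are shown, for an early enzyme whose RNA was lower after the knockdown (HMGCS1), for the retention protein with the lowest RNA ratio in MDA-LM2 (INSIG1), and for MBTPS1, whose RNA hardly differed. Sequences are from the RefSeq promoter table (GRCh38.p14), 250 bases up to the start of transcription, 5′ to 3′ on the strand of the gene. Of the 2 starts that the table holds for HMGCS1, the upstream one is shown. Capitals mark matches to the NF-Y box CCAAT or the Sp1 box GGGCGG, read on both strands. HMGCS1 lies at chr5:43313413-43313662 (minus strand), INSIG1 at chr7:155297628-155297877 (plus strand) and MBTPS1 at chr16:84116943-84117192 (minus strand).
HMGCS1: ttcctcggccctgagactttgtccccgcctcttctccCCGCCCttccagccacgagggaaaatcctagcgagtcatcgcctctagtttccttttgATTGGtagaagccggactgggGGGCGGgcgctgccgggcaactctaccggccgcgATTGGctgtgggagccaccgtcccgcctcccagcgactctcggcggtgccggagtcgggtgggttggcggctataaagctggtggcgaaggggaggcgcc
INSIG1: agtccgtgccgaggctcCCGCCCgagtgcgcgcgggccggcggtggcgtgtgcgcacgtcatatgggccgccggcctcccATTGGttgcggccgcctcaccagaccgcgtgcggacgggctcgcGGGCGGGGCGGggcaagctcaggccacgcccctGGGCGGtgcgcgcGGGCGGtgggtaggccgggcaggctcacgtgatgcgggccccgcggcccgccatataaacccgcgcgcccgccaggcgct
MBTPS1: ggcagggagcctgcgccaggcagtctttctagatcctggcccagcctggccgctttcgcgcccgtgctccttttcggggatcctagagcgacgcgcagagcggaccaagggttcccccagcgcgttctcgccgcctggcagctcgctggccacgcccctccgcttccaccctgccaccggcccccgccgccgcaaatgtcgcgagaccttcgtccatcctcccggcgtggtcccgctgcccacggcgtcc

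In HMGCS1 the NF-Y box was found at positions -155 and -100 from the start, and in INSIG1 at -170, each time on the opposite strand. MBTPS1 held neither box in this window. Of the 8 genes, 6 had a promoter in the table (all but SQLE and FDFT1), and 5 of these 6 held CCAAT (83.3%, against 35.7% of the 27305 promoters) and 5 of 6 held GGGCGG (against 44.6%), in windows from 250 bases before to 50 after the start. MBTPS1 was the one without either. A common form of the sterol regulatory element, TCACNCCAC, matched in 0 of the 6 and in 1.15% of all promoters. In the lists of related genes its match was in SREBF2, which encodes SREBP-2, at position -133 (chr22:41832964-41832988, plus strand): acgcgccaTCACCCCACgcaccgct, with the element in capitals. A match is a description of letters and not a binding site, and the absence of one says only that these letters are not in this window.

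The values are normalised read counts per transcript, and those of the MDA-LM2 table and the knockdown table were scaled separately, so they are not compared across the tables. RNA libraries held 7517953 to 8193031 reads in the first table and 5141959 to 6164753 in the second, and RPF totals were 650736 to 679726 and 158011 to 167928 normalised counts. How many RPF reads lie behind these totals is not known. Footprints are therefore least precise in the knockdown table, where the median difference between replicates was 0.242 to 0.295 on the log2 scale, against 0.197 to 0.201 in the MDA-LM2 table. In RNA the MDA-LM2 replicates differed by a median of 0.199, against 0.0949 for parental cells.

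In MDA-LM2 cells the RNA of INSIG1, DHCR7, LSS, FDFT1, HMGCS1 and FDPS was lower than in parental cells without overlap, and that of SQLE and MBTPS1 overlapped. INSIG1 RNA was 1567 and 1481 normalised counts in the parental libraries and 627 and 435 in those of MDA-LM2. DHCR7 RNA was 1539 and 1567 in parental cells against 932 and 621. LSS RNA was 1107 and 1115 against 650 and 520. For these 3 genes both MDA-LM2 libraries lay well below both parental ones, with log2 changes (± SE) of -1.54 ± 0.17, -1.03 ± 0.19 and -0.93 ± 0.13. In each case MDA-LM2 replicate 2 was the lower of the pair.

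The other enzymes had smaller differences. FDFT1 RNA was 509 and 513 in parental cells and 378 and 318 in MDA-LM2 cells, a log2 change of -0.56 ± 0.13. HMGCS1 RNA was 157 and 137 against 82.7 and 118, a change of -0.57 ± 0.20. FDPS had 1846 and 1841 against 1515 and 1421, or -0.33 ± 0.11. The groups did not overlap for any of these 3 genes, although for HMGCS1 the gap between the groups was narrower than that between the MDA-LM2 replicates. SQLE RNA overlapped between the lines, with 120 and 127 in parental cells and 126 and 89.6 in MDA-LM2 cells. MBTPS1 RNA overlapped too, at 929 and 984 against 1021 and 854.

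Both libraries were lower without overlap for 6 of the 8, and for 33.6% of all genes. The median log2 RNA change of the 8 was -0.56, beside -0.02 over all genes tested. When libraries were rescaled to equal totals, the median of all genes moved to 0.15 and that of the set to -0.39. This rescaling multiplies each library by a single factor, so the difference between the medians (-0.54 under both scalings) could hardly change.

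**Figure D1:**
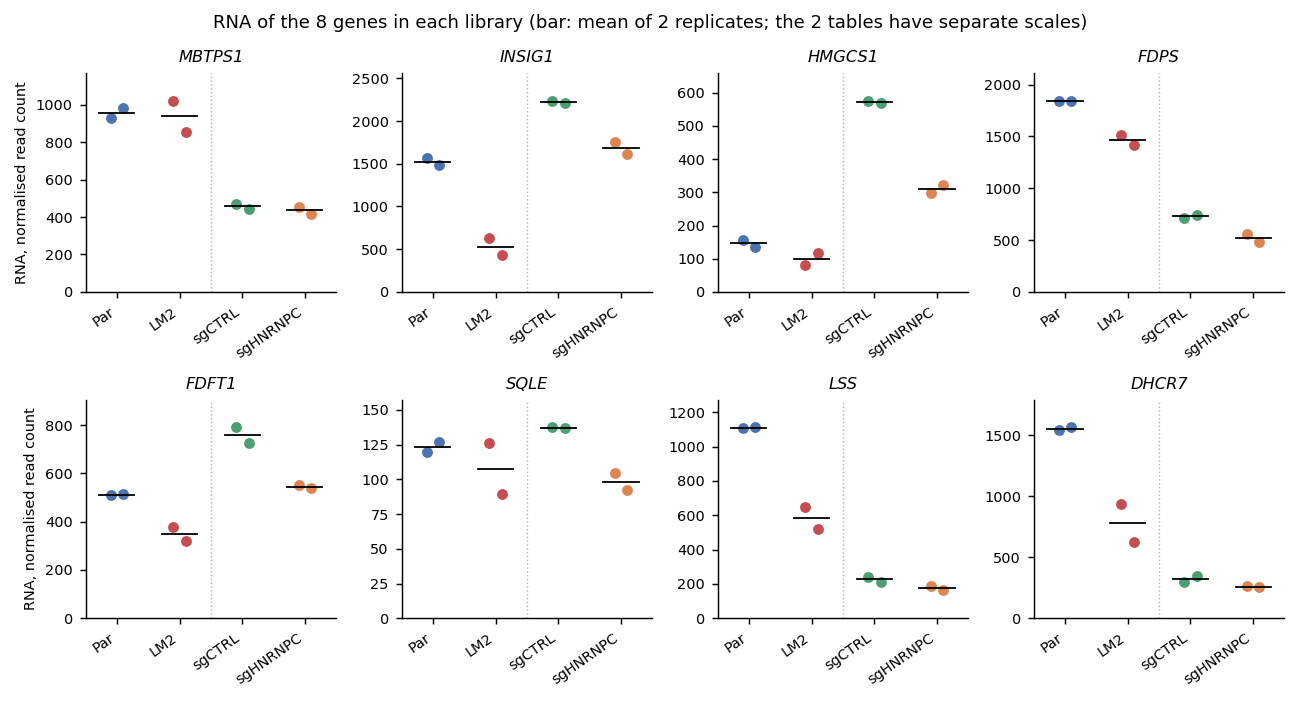
RNA of the 8 genes, in normalised read counts (vertical axis, linear, from 0), in each library of the 4 lines, with points for the 2 replicates and a bar for their mean. The dotted line separates the tables, which are on separate scales. INSIG1, DHCR7 and LSS show the widest gaps between parental and MDA-LM2 cells, HMGCS1 the largest relative gap between sgCTRL (576 and 569) and sgHNRNPC (298 and 324), and MBTPS1 overlaps in both tables.

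Footprints were lower without overlap in MDA-LM2 cells for INSIG1, DHCR7, LSS, FDFT1 and HMGCS1, and overlapped for FDPS and SQLE. INSIG1 had 99.7 and 103 footprint counts in parental cells and 47.8 and 28.4 in MDA-LM2 cells, a log2 change of -1.43 ± 0.20. DHCR7 had 235 and 222 against 119 and 113, or -0.97 ± 0.12. LSS had 135 and 146 against 88.4 and 79.3, or -0.74 ± 0.14. These are the same 3 genes that had the lowest RNA ratios. FDFT1 footprints were 172 and 169 against 111 and 116, a change of -0.59 ± 0.13, and those of HMGCS1 were 64.5 and 73.8 against 58.0 and 45, a change of -0.43 ± 0.18. For both genes the groups did not overlap. FDPS, with 207 and 225 against 211 and 190, and SQLE, with 23.9 and 31.7 against 27.4 and 27.8, overlapped between the lines.

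MBTPS1 had more footprints in MDA-LM2 cells at an RNA level that overlapped. Its footprints were 16.6 and 19.5 normalised counts in the parental libraries and 40.9 and 36.9 in the MDA-LM2 libraries, the values for which the gene had been selected. The log2 footprint change was 1.07 ± 0.26. The RNA change was -0.03 ± 0.13. TE was 0.0179 and 0.0198 in the parental replicates and 0.0401 and 0.0432 in those of MDA-LM2, which did not overlap, and the log2 TE change was 1.10 ± 0.22. These counts are low, since the parental mean of 18.1 is not far above the minimum mean of 10 that a gene needed to be tested.

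In RPF, the groups lay apart without overlap for 5 genes downwards and 1 upwards, against 27.6% and 25.7% of all genes. The 1 upwards was MBTPS1, which had been selected on this value. Apart from MBTPS1, log2 TE changes ranged between -0.03 (FDFT1) and 0.22 (FDPS), with a median over all 8 of 0.17, beside 0.03 over all genes. TE was higher without overlap for 3 of the 8 (MBTPS1, LSS and FDPS), against 20.5% of all genes tested. The place of MBTPS1 among the 3 follows from its selection.

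**Figure D2:**
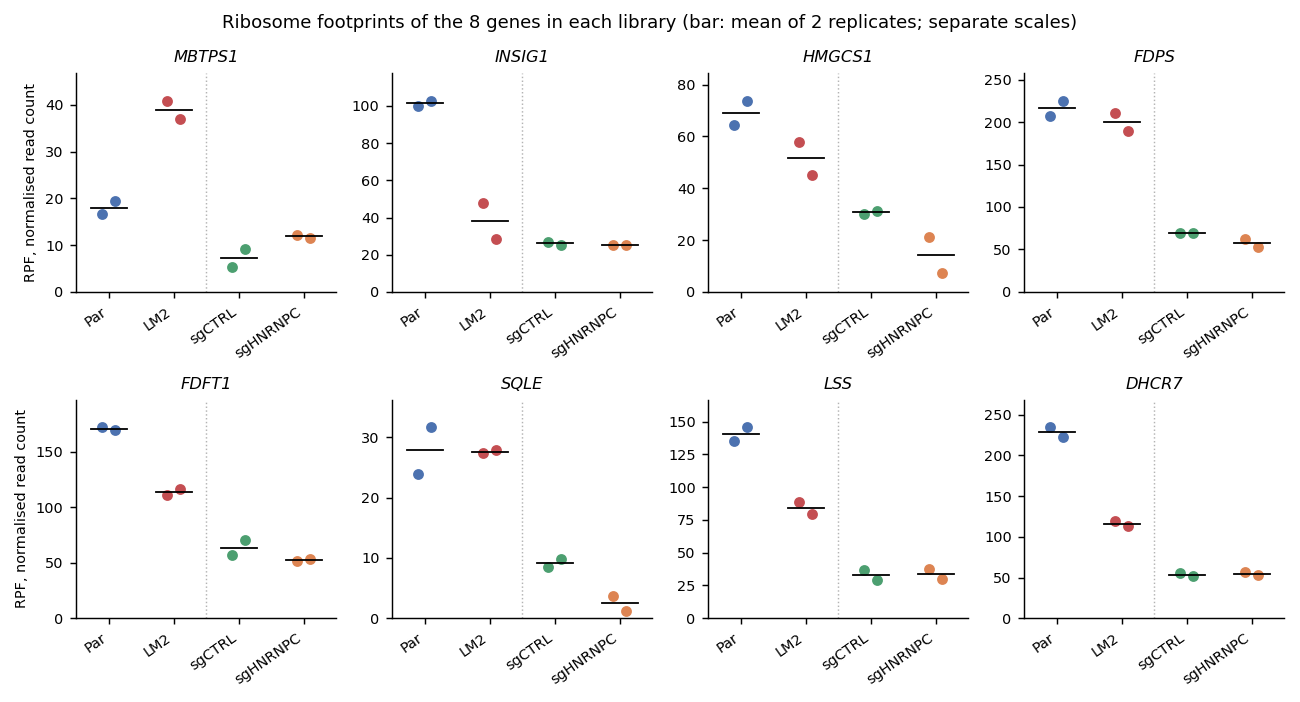
Ribosome footprints of the 8 genes, in normalised read counts (vertical axis, linear, from 0), in each library, with points for the 2 replicates and a bar for their mean; the dotted line separates tables on separate scales. MBTPS1 is the gene with more footprints in both MDA-LM2 libraries (40.9 and 36.9) than in both parental ones (16.6 and 19.5).

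**Figure D3:**
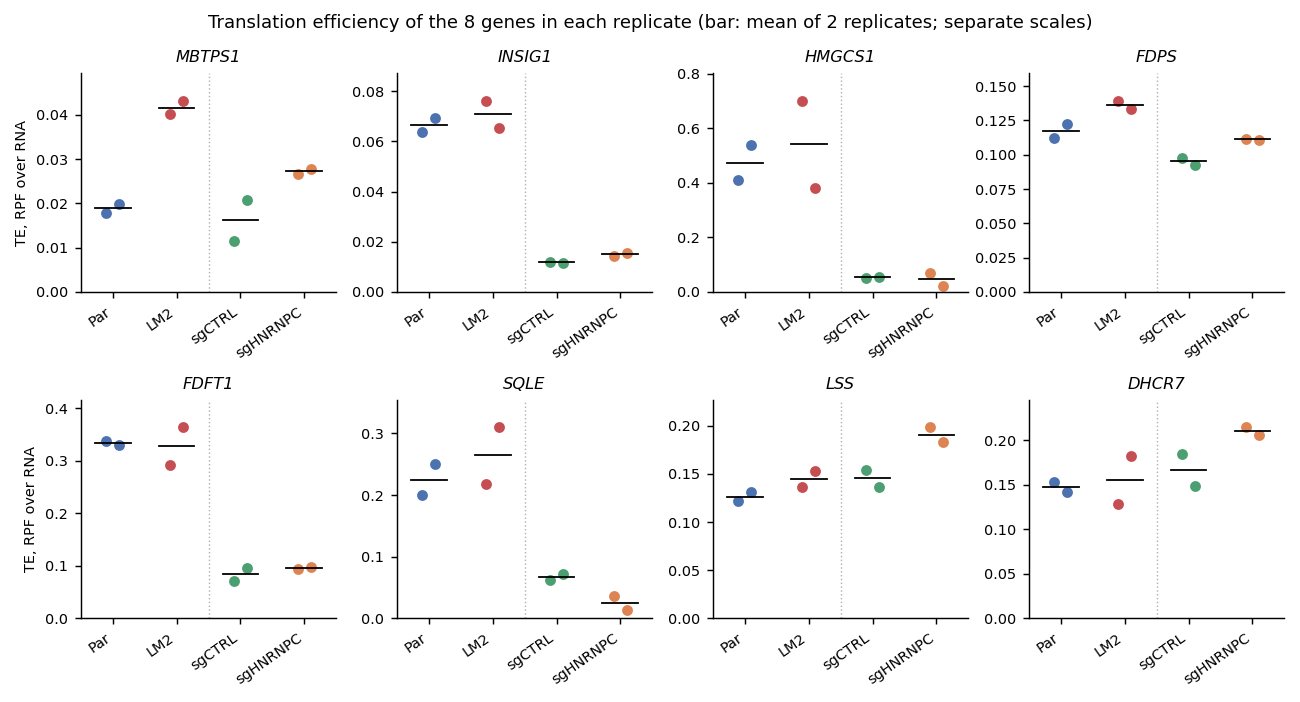
Translation efficiency, the RPF value over the RNA value of the same replicate number (vertical axis, linear, from 0), with points for the 2 replicates and a bar for their mean. For MBTPS1 the MDA-LM2 values (0.0401 and 0.0432) lie above the parental ones (0.0179 and 0.0198), whereas those of HMGCS1, SQLE, DHCR7, INSIG1 and FDFT1 overlap between these lines.

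Per length of the mRNA and of the coding sequence, MBTPS1 had few footprints for its RNA in parental and MDA-LM2 cells. In parental cells its RNA per kilobase was higher than that of 69.4% of the 8208 genes with a length, its footprints per kilobase of coding sequence higher than those of 6.91%, and its ratio of the pair higher than that of 0.926%. In MDA-LM2 cells its RNA was above 70.8% of genes and the ratio above 4.52%. In the knockdown table its RNA was above 37.0% of genes in sgCTRL cells and 36.0% in sgHNRNPC cells. Its ratio stood above 1.48% of 4190 genes in sgCTRL cells and above 6.90% in sgHNRNPC cells. These 4190 genes had passed the minimum mean in RPF, which MBTPS1 had not, so the filter itself favoured a low rank there. HMGCS1 lay at the other end of the first table, with a ratio above 97.5% of genes in parental and 98.4% in MDA-LM2 cells. In the second table its ratio was above 79.2% of genes in sgCTRL and 70.5% in sgHNRNPC cells. INSIG1 stood near the middle of the first table (45.9% in parental and 47.3% in MDA-LM2 cells) and low in the second (8.38% in sgCTRL and 14.7% in sgHNRNPC cells). The tables rank against different sets of genes (8208 and 4190), so these percentages are not compared across them. These levels rest on 1 listed mRNA per gene, so a shorter mRNA in use would raise the RNA per kilobase.

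Gene positions on hg38 (GENCODE version 44) bear on what was counted. MBTPS1 (chr16:84053763-84116942, minus strand, 23 exons, coding length 3156 bases), INSIG1 (chr7:155297878-155310235, plus strand, 6 exons) and DHCR7 (chr11:71434411-71448393, minus strand, 9 exons) shared no exon with another gene. The exons of HMGCS1 (chr5:43287470-43313412, minus strand, 11 exons) overlapped a long non-coding RNA on the opposite strand over 2497 bases of an mRNA of 5350. Those of FDPS (chr1:155308916-155320665, plus strand, 11 exons) overlapped RUSC1-AS1 over 587 bases, and those of LSS (chr21:46188141-46228822, minus strand, 23 exons) overlapped opposite-strand non-coding RNAs over 450 bases. The RNA libraries were made with a stranded kit, and whether the counting used the strand is not given in the sources used here, so the RNA counts of HMGCS1, FDPS and LSS are uncertain to that extent.

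The wider pathway was described with 74 genes in 6 lists, the 8 genes included. The 8 genes enter these counts, which were made with MBTPS1 and its pathway already chosen. In RNA, 21 of the 68 tested were lower in MDA-LM2 cells and 2 were higher at an adjusted p under 0.05, against 9.44% and 5.80% of the 8393 genes tested. The number called in either direction, 23, was 15 or 13 without parental replicate 1 or 2, and 41 or 36 without MDA-LM2 replicate 1 or 2. Of the 20 synthesis enzymes, 19 were tested and 6 were called lower, none higher, with MVK and IDI1 among them. All 19 log2 changes were below 0, with a median of -0.34, and 16 of 19 were below 0 with equal totals. MVK, mevalonate kinase, fell by 0.82 on the log2 scale (adjusted p = 0.0057) and IDI1, which isomerises isopentenyl diphosphate, by 0.43 (adjusted p = 0.047).

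Fatty acid synthesis, which SREBP-1 governs, was the list with the most calls for its size. In RNA, 7 of its 11 genes fell and none rose, against 9.44% called lower and 5.80% called higher of all genes tested. Its median log2 change was -0.76, beside -0.02 over all genes tested. The same count of 7 fell in RPF, against 7.03% of all genes. SCD, the desaturase that makes oleate, fell from 4959 and 5357 RNA counts to 1494 and 1340, a log2 change of -1.86 ± 0.12 (adjusted p = 0.00025). FASN, fatty acid synthase, fell from 10135 and 10539 to 3854 and 4034 (-1.39 ± 0.12, adjusted p = 0.00068). The others that fell were FADS2, LPIN1, FADS1, ACACA and ACLY, with changes from -1.17 to -0.62, while ELOVL6, ME1 and GPAM had changes of 0.07, 0.06 and 0.41 that did not pass.

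Among the control genes, both transcription factors were called in RNA, and the escort and the proteases were not. SREBF1 RNA, which encodes SREBP-1, fell from 1718 and 1759 counts to 595 and 634 (-1.50 ± 0.11, adjusted p = 0.00035), and its footprints fell by 1.22 on the log2 scale. SREBF2 RNA fell by 0.48 (adjusted p = 0.028). SCAP had 1420 and 1348 counts in parental cells against 1501 and 1149, with a change of -0.07 ± 0.15. MBTPS2, the site 2 protease that cuts after the MBTPS1 product, had an RNA change of 0.27 ± 0.16 and an RPF change of -0.58 ± 0.30, opposite in sign to that of MBTPS1, and neither passed (adjusted p = 0.28 and 0.23). INSIG2, the homologue of INSIG1, had a change of -0.28 ± 0.23 (adjusted p = 0.43). ERLIN1, a membrane protein of the endoplasmic reticulum, rose by 0.55 in RNA and 0.65 in RPF (adjusted p = 0.033 and 0.0038), and RNF145, a ubiquitin ligase of the same membrane, rose by 0.53 in RPF (adjusted p = 0.047).

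The remaining lists had most of their calls in uptake. Of the 13 tested genes of uptake, storage and transport, 5 fell in RNA, among them ABCA1, LIPA and SCARB1, and none rose. Over all genes tested, 9.44% were called lower and 5.80% higher in RNA. ABCA1, which exports cholesterol, and LIPA, the lysosomal lipase, fell by 1.00 and 0.81. None of the 9 genes of the prenyl branch was called in RNA, and in RPF DHDDS, a subunit of the enzyme that begins dolichol synthesis, fell by 1.01 (adjusted p = 0.0059). The other substrates of the site 1 protease had 1 call among 5 tested, ATF6, a sensor of unfolded proteins, whose RNA rose by 0.46 (adjusted p = 0.034) while its footprint change of 0.34 ± 0.15 did not pass. In RPF, 21 of the 68 pathway genes were lower and 3 higher, against 7.03% and 5.00% of all genes, and MBTPS1, selected on this value, was 1 of the 3. In TE limma called none of the 68 and 0.0357% of all genes. An unadjusted p under 0.05 was reached by 6 of the 68 (DHDDS, FADS2, MBTPS2 and PMVK among them), against 5.42% of all genes. The footprint calls included CYP51A1, MSMO1 and SC5D, enzymes of the steps after lanosterol that had not passed in RNA, and NPC2, a lysosomal sterol carrier (-0.38, adjusted p = 0.049).

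The genes were tested in the knockdown libraries, which are not those whose values selected MBTPS1, although the set was put together with earlier results of the series known. HNRNPC RNA was 2162 and 2146 counts in sgCTRL cells and 1147 and 1183 in sgHNRNPC cells, 0.541 times the control. Of the 8 genes, 6 had the minimum mean in both kinds of library, while MBTPS1 and SQLE had too few footprints. All 6 fell in RNA, where 11.3% of the 4283 genes tested were called lower. All 6 were lower without overlap, against 34.6% of all genes. Their median log2 change was -0.44, beside -0.04 over all genes tested.

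HMGCS1 had the largest fall of the set, from 576 and 569 RNA counts to 298 and 324 (-0.88 ± 0.08, limma, adjusted p = 6.5e-15), 0.543 times the control. FDPS fell from 714 and 745 to 557 and 479 (-0.50 ± 0.07, adjusted p = 3.9e-08). FDFT1 fell from 793 and 727 to 550 and 541 (-0.48 ± 0.07, adjusted p = 4.0e-08). These 3 enzymes act before the sterol rings are formed, and for each both sgHNRNPC libraries lay below both controls. INSIG1 fell from 2239 and 2207 to 1757 and 1619 (-0.40 ± 0.05, adjusted p = 9.4e-11). LSS fell from 238 and 214 to 190 and 165 (-0.35 ± 0.12, adjusted p = 0.030), and DHCR7 from 300 and 346 to 262 and 258 (-0.31 ± 0.10, adjusted p = 0.023). The calls of LSS and DHCR7 were lost with quantile normalisation (adjusted p = 0.064 and 0.076). They were also lost when single replicates were left out, LSS without sgCTRL replicate 1 or sgHNRNPC replicate 2 and DHCR7 without sgCTRL replicate 2 or either sgHNRNPC replicate (adjusted p from 0.084 to 0.35).

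SQLE RNA was 138 and 137 counts in sgCTRL cells and 104 and 92.6 in sgHNRNPC cells, without overlap. In the fit without the filter its change was -0.48 ± 0.15 (adjusted p = 0.026), where 6.64% of 8980 genes were called lower. MBTPS1 RNA was 468 and 444 against 455 and 415, which overlapped, with a change of -0.07 ± 0.08 (adjusted p = 0.67). MBTPS1 was thus the gene of the set without a call in RNA in this comparison.

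**Figure D4:**
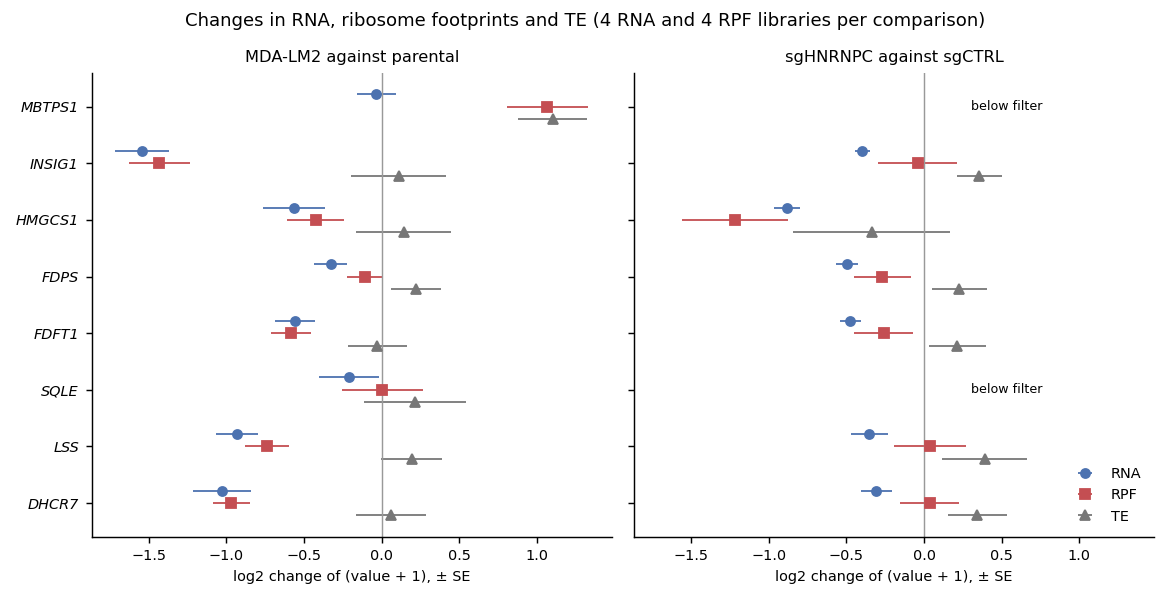
Log2 changes (horizontal axis, ± SE) in RNA, RPF and TE of the 8 genes for MDA-LM2 against parental cells (left) and sgHNRNPC against sgCTRL cells (right), from 4 RNA and 4 RPF libraries each. MBTPS1 on the left has an RNA change of -0.03 beside an RPF change of 1.07, the changes of the other genes on the left are at or below 0 in RNA and RPF apart from the RPF of SQLE (0.00), and on the right the 6 tested genes are below 0 in RNA.

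In the knockdown, footprint changes of these genes did not pass the test. None of the 6 tested genes was called in RPF, where 0.0233% of all genes were, and 1 of the 6, HMGCS1, had an unadjusted p under 0.05, as did 7.68% of all genes. HMGCS1 footprints were 30.0 and 31.3 counts in sgCTRL cells and 21.1 and 7.4 in sgHNRNPC cells, a change of -1.22 ± 0.34 (adjusted p = 0.38). On the log2 scale the sgHNRNPC replicates differed more than the group means did. The change was -1.92 without replicate 1 of that line and -0.52 without replicate 2, each time with a single sgHNRNPC footprint library left. With the replicate number as a block the limma adjusted p of HMGCS1 was 0.033. FDPS had 69.8 and 69.0 against 62.0 and 53.1, and FDFT1 56.6 and 70.3 against 51.8 and 53.2, both lower without overlap, so that 3 of the 6 were, against 17.1% of all genes. INSIG1 (27.0 and 25.4 against 25.4 and 25.3), LSS (36.8 and 29.2 against 37.8 and 30.1) and DHCR7 (55.3 and 51.6 against 56.3 and 53.3) overlapped, with changes of -0.04, 0.04 and 0.04.

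Translation efficiency in the knockdown was called for none of the 6 by limma, for 0% of all genes and for none of the 6 by logistic regression. INSIG1 had an unadjusted p under 0.05, as did 7.75% of all genes, with TE of 0.0120 and 0.0115 in sgCTRL cells and 0.0145 and 0.0156 in sgHNRNPC cells (log2 change 0.36 ± 0.15, adjusted p = 0.62). LSS (0.39 ± 0.28), DHCR7 (0.34 ± 0.19) and FDPS (0.23 ± 0.18) were higher without overlap as well, so that 4 of the 6 were, against 22.6% of all genes. HMGCS1 had a change of -0.34 ± 0.51, the widest error of the 6.

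The low footprint counts of MBTPS1 and SQLE in this table can only be listed. MBTPS1 had 5.4 and 9.2 footprint counts in sgCTRL cells and 12.2 and 11.6 in sgHNRNPC cells, and TE of 0.0115 and 0.0208 against 0.0267 and 0.0279. Both sgHNRNPC values were above both controls, but the changes without the filter (0.67 ± 0.42 in RPF and 0.74 ± 0.33 in TE) did not pass (adjusted p = 0.78 and 0.69). SQLE had 8.5 and 9.8 against 3.7 and 1.3, with an RPF change of -1.64 ± 0.56 (adjusted p = 0.57).

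In the wider pathway, 24 of the 46 genes tested fell in RNA after the knockdown and 1 rose, against 11.3% and 4.72% of all genes. Without sgHNRNPC replicate 2 the number called was 11 in place of 25. The synthesis enzymes made up 12 of these 24, out of 15 tested, with a median log2 change of -0.40. Beside the members they included MVK (-0.71), MSMO1 (-0.51), CYP51A1 (-0.51), ACAT2 (-0.46) and IDI1 (-0.25), and NSDHL, EBP and SC5D did not pass. All 15 changes stayed below 0 with equal totals and with quantile normalisation, under which 12 and 10 were called.

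Genes of the other lists fell as well, where 11.3% of all genes tested were called lower in RNA and 4.72% higher. Of the 7 control genes tested, 3 fell, among them INSIG1 and SREBF2 (-0.23, adjusted p = 0.0052), and SREBF1 had a change of 0.17 ± 0.10 that did not pass (adjusted p = 0.27). In uptake, storage and transport, 3 of 10 fell and 1 rose. STARD4, a sterol carrier of the cytosol, fell by 0.27 (adjusted p = 0.0031), and NPC2 rose by 0.25 (adjusted p = 0.045). In fatty acid synthesis, 5 of 9 fell: ACSS2 (-0.57), FASN (-0.26), FADS2 (-0.24), ACLY (-0.14) and SCD (-0.11). CREB3L2, a substrate of the site 1 protease, fell by 0.29 (adjusted p = 0.0097). No pathway gene was called in RPF or TE; 5 and 3 of the 46 had an unadjusted p under 0.05, against 7.68% and 7.75% of all genes.

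**Figure D5:**
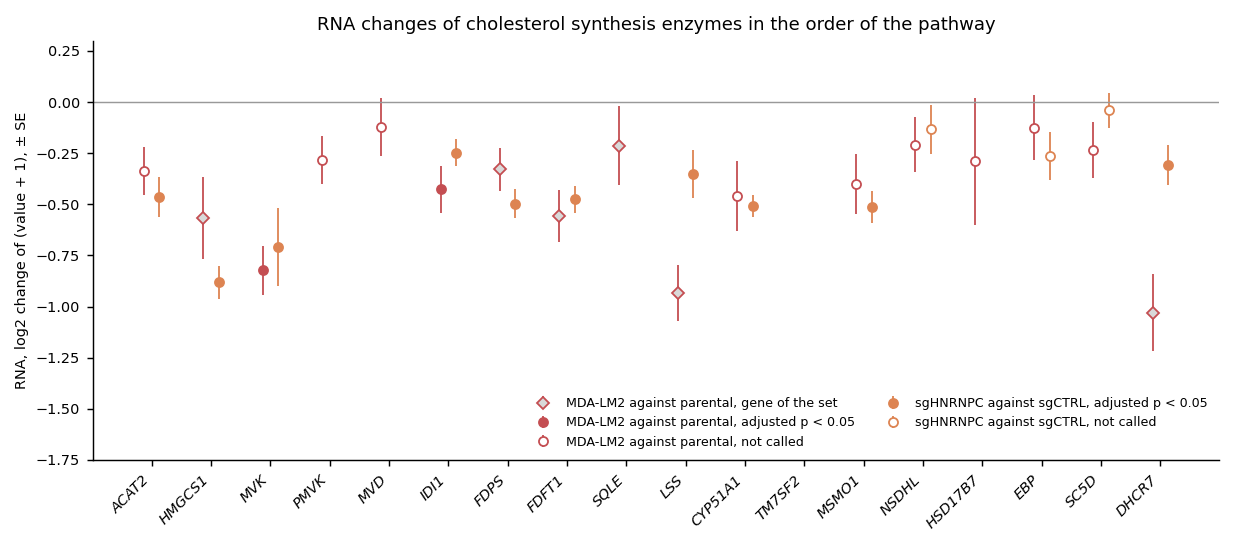
Log2 RNA change (vertical axis, ± SE) of 18 of the 20 synthesis enzymes in the order of the pathway, for both comparisons; filled circles passed an adjusted p under 0.05, open circles did not, grey diamonds are genes of the set, whose MDA-LM2 values are given without a call, and genes below the filter have no point. All points lie below 0, with LSS and DHCR7 the lowest for MDA-LM2 (-0.93 and -1.03) and HMGCS1 for sgHNRNPC (-0.88).

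The comparisons use no library in common. Of the 46 pathway genes tested in both, 20 were called lower in RNA in MDA-LM2 cells and 24 in sgHNRNPC cells. The 14 called in both were 70.0% of the former and 58.3% of the latter. Over all 4280 genes tested in both, 453 and 482 were called lower, and the 88 called in both made up 19.4% and 18.3%. A larger share of the pathway genes was called lower in each comparison alone, so the percentages do not start from a like base. The 14 genes included MVK and IDI1 among the enzymes, SREBF2 among the control genes, and the fatty acid genes ACLY, FASN, SCD and FADS2. Genes of the set are counted among the 14 too, although their MDA-LM2 values serve only as a description. Since the pathway was chosen with results of these data known, this overlap is a description.

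Finally, the patterns over all 16 libraries were compared after centring each gene within each kind of library of each table. The genes most like MBTPS1 among 669 with means of at least 50 were OAT (Pearson r = 0.906), EIF3L (0.784) and TRIM28 (0.779). Those most like HMGCS1 were TACC3 (0.883), COPG1 (0.848) and LAMB1 (0.847). HMGCS1 correlated with the other enzymes and INSIG1 at r from 0.372 (DHCR7) to 0.822 (SQLE), and with MBTPS1 at -0.419. The minimum mean of 50 was required of the 669 genes and not of the genes of the set. In the knockdown libraries MBTPS1 and SQLE had too few footprints to be tested. In sgHNRNPC replicate 2 HMGCS1 had 7.4 footprint counts and SQLE 1.3, so the r values rest partly on low counts. MBTPS1 had a negative r with every other gene of the set, from -0.445 (INSIG1) to -0.201 (FDPS). The 16 libraries include those whose values selected MBTPS1. Its r values and its nearest genes therefore follow in part from that selection. RNA and RPF libraries of a line share their source and groups differ between lines, so these are descriptions without a test.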

How the data were processed

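RNA and RPF libraries of MDA-Par, MDA-LM2, MDA-sgCTRL and MDA-sgHNRNPC cells were used, 16 in all, grouped by their titles. The authors deposited, for each transcript, a normalised signal. They trimmed reads with cutadapt 2.3, collapsed UMIs with UMI-tools, aligned to 1 mRNA per gene with Bowtie2 2.3.5 (hg38) and scaled counts by median-of-ratios factors for each kind of library. Their methods allow a smoothing of stalling peaks in footprint counts, and whether it was used here is not stated. RNA values were whole multiples of a step per library, which gave the RNA reads.

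Transcripts were matched to GENCODE version 44 (97.9% in both tables). Genes with a mean of at least 10 in RNA and in RPF were tested with limma 3.58.1 in R 4.3.3 on log2(value + 1), with a trend and Benjamini-Hochberg adjustment over all genes tested, two-sided. The TE change is the interaction of line and kind of library. A gene was called at an adjusted p under 0.05, and "without overlap" means that both values of a line lay beyond both of the other. The members and lists were chosen with earlier results of these data known. Named genes are the members, HNRNPC, the main regulators, list genes called in either comparison and the 3 nearest patterns to MBTPS1 and HMGCS1. Some list genes are counted but not reported here by name. The fits were tested on simulated tables.

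Alternatives were other pseudocounts (0.5 and 5), no filter or a minimum mean of 50, equal totals, quantile normalisation, a replicate block, leaving out each replicate, and the logistic regression of the study. Per the labels RNA was isolated from the lysates made for footprinting, and the titles give the replicate number only, so a block of equal numbers within a line takes them to be 1 lysate. Numbers of different lines share only the number. Tables and figures used Python 3.11.15 (pandas 2.3.3, numpy 2.4.6, matplotlib 3.10.9).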

Additional observations from a re-analysis of the deposited data

How the results depend on the processing

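No call of the 8 genes changed sign under any alternative, but some calls were lost and others were gained. In RNA, 1279 genes were called for MDA-LM2 (684 for the knockdown), with 440 (228) at a minimum mean of 50 and 492 to 4235 (371 to 569) when each replicate was left out, and pathway calls went from 23 to a range of 13 to 41 (25 to 11 to 23, and 10 at a minimum mean of 50). In RPF, 1010 genes were called for MDA-LM2, with 641 to 855 in the leave-one-out fits. For the knockdown, RPF calls were 1, with 2 at equal totals, 4 with quantile normalisation, 12 with the replicate block, 0 without the filter (617 at an unadjusted p under 0.05) and 0 to 41 in the leave-one-out fits, and pathway RPF calls were 2 with the replicate block and 0 to 2 in the leave-one-out fits. In TE, 3 genes were called for MDA-LM2, with 0 without the filter, at equal totals or with quantile normalisation (602, 526 and 472 at an unadjusted p under 0.05), 5 with the replicate number and 10 with the lysate as replicate block, 181 by logistic regression and 0 to 7 in the leave-one-out fits; pathway TE calls were 1 with the lysate block and 2 by logistic regression. For the knockdown TE calls were 0 (332 at an unadjusted p under 0.05) and 11 by logistic regression. The cause was not tested.

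Equal totals moved the share of RNA calls that were higher in MDA-LM2 from 38.1% to 66.6% and that of RPF calls from 41.6% to 54.3%. For the knockdown the RNA share was 29.5%, and 43.2% with quantile normalisation. Deviations of samples with the same replicate number correlated at r from -0.004 to 0.234 across lines and at 0.0003 to 0.139 between RNA and RPF of a number within a line, apart from sgCTRL (-0.008), so the data do not show that numbers mark lysates. In the knockdown, the replicate block changed no call of the tested genes of the set but that of HMGCS1 in RPF. A count test on the recovered RNA reads was planned and not run. Low footprint counts limit what the knockdown table can show for MBTPS1 and SQLE.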
